A study of Arabidopsis thaliana with 8 samples.

Results

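The arrays of wild type *Arabidopsis* seedlings were used to compare transcript levels in the subjective afternoon, at 32 h of constant red light, with those at subjective dawn, at 24 and 48 h. The comparison covers the 13282 probe sets, of 22746 that are not controls, with a signal of at least 100 at 32 h or in the mean of 24 and 48 h. A probe set is a group of oligonucleotides that reports a transcript on the Affymetrix ATH1 array, although some match several genes. Its signal is a linear intensity with no unit. Of these members, 12160 reached 100 on both sides, 491 only at 32 h, and 631 only at dawn. The lowest signal inside the limit was 100.0 and the highest outside it was 99.98, and 365 members lay between 100 and 110.

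Wild type plants of the No-0 ecotype were grown as whole seedlings on medium with sucrose at 21 °C in 12 h cycles of mixed red and blue light and darkness for 7 days, and then moved to red light of 120 µmol. Seedlings of the *fhy3-4* mutant of FHY3, a transcription factor of phytochrome A signalling, were grown and sampled beside them. Each sample held about 100 seedlings and was hybridised to 1 array. The times were 24, 32, 40, and 48 h in both genotypes. The afternoon is therefore 1 array and the dawn is 2 arrays taken 1 day apart, without biological replicates at any time. Anything particular to the 32 h sample cannot be told apart from the time of day. In whole seedlings, fewer cells of a type and less RNA per cell cannot be told apart either.

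The plant clock is a loop of repressors that follow one another through the day. The MYB proteins CCA1 and LHY are made at dawn and repress genes of the day and evening, the PRR proteins are made in turn from morning to evening and repress *CCA1* and *LHY*, and an evening complex of ELF3, ELF4, and LUX represses day genes at night. Through this loop many genes of metabolism, growth, and stress tolerance are known to cycle in constant light.

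The 24 and 48 h arrays set the noise scale. Over members their signals had a Spearman correlation of 0.973, while the 32 h array had 0.938 with 24 h and 0.941 with 48 h. The SD of the log2 difference was 0.31 for 48 h against 24 h, which scales to 0.26 for 1 array against the mean of 2, and it was 0.46 for 32 h against dawn. The median absolute difference was 0.14 between the dawn arrays and 0.25 for 32 h against dawn. For 7073 members, 53.3%, the 32 h signal lay farther from the nearer dawn array than the dawn arrays lay from each other. A difference of at least 2-fold between 24 and 48 h was found for 203 members, 1.53%, of which 166 were higher at 48 h and 37 at 24 h.

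**Figure D1:**
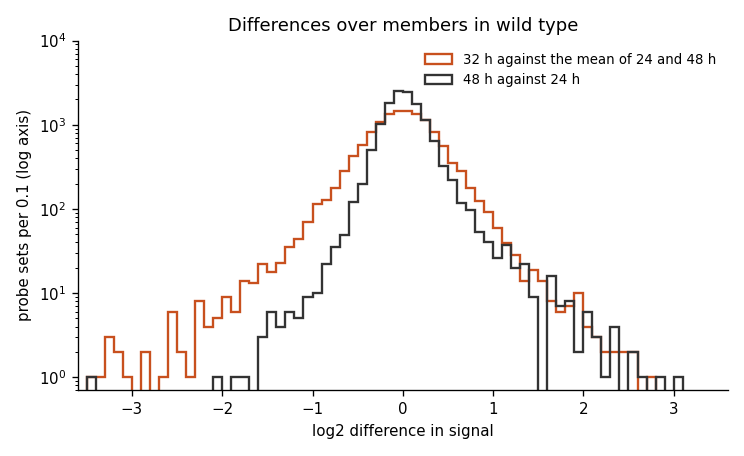
Histogram of log2 differences over the 13282 members in wild type, with the difference on the horizontal axis and probe sets per step of 0.1 on a logarithmic vertical axis. The line for 32 h against the mean of 24 and 48 h is broader (SD 0.46) than the line for 48 h against 24 h (SD 0.31), and the latter has more members on its right side.

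A member was called higher or lower where its 32 h signal was at least 2-fold above or at least 2-fold below each of the dawn arrays. By this rule, 139 members were higher in the afternoon (1.05%) and 215 were lower (1.62%), against 1.58% and 2.55% of the 18108 probe sets tested. Together these were 354 members (2.67%), against 4.14% of all tested. The calls describe 3 arrays and carry no p-value. At 4-fold 9 members were higher and 29 lower, and at 8-fold none was higher and 6 were lower. At 32 h, 4967 members (37.4%) stayed within 1.2-fold of both dawn arrays. Without the 24 h array, 219 members were higher and 410 lower, and without the 48 h array 306 were higher and 325 lower, so that the need to pass both dawn arrays sets these counts.

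**Figure D2:**
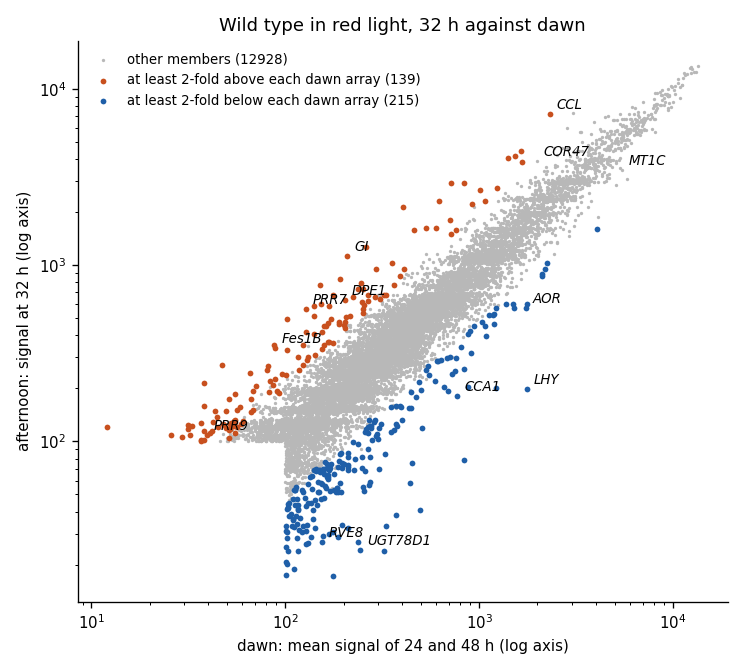
Signal at 32 h (vertical) against the mean signal of 24 and 48 h (horizontal) for each member in wild type, both on log axes, 1 point per probe set. Of the members, 139 lie at least 2-fold above each dawn array and 215 at least 2-fold below, and the corner under 100 on both axes is empty because of the limit on signal.

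Across all probe sets, limma called none higher (0%) or lower (0%) at an adjusted p of 0.05, and the smallest adjusted p was 0.0534, just above it. The unadjusted p was under 0.05 for 1612 members higher in the afternoon (12.1%) and 1823 lower (13.7%). The test has 2 residual degrees of freedom, both from 24 against 48 h, so its p-values measure the spread between days and not between biological replicates. The count of 0 depended on the settings. With the probe sets weak in both genotypes kept in, 136 members were called higher and 201 lower.

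The low signals made up much of the calls. Where the higher side lay between 100 and 200, 4.99% of 3185 members were called, and the noise SD there was 0.35. Between 200 and 500 it was 2.01% of 4935 members, and at 2000 or more it was 1.78% of 1013, with a noise SD of 0.26. Of the 1013 strongest, 13 were higher and 5 lower, whereas between 100 and 200, 49 were higher and 110 lower. Members that reached 100 only at their high side had to differ, and they were 61 of the 139 higher and 141 of the 215 lower calls.

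The morning MYB genes were lower in the afternoon. *LHY* (AT1G01060) had signals of 1878 at 24 h and 1653 at 48 h, and 198.2 at 32 h. This was 8.89-fold below the dawn mean (log2 difference −3.15, SE 0.15, adjusted p = 0.0534 from limma). *CCA1* (AT2G46830), its partner, had 775.5 and 769.8 at dawn and 181.9 at 32 h, or 4.25-fold lower (log2 difference −2.09, SE 0.11). *RVE8* (AT3G09600), a related MYB gene whose protein activates evening genes, had 149.7 and 158.9 at dawn and 26.8 at 32 h, or 5.75-fold lower. It entered through its dawn signals alone. Its 32 h signal is close to 20.7, the floor to which lower signals were set for log2 values. In each of these 3 genes the dawn arrays differed by less than 1.2-fold and the afternoon array stood apart. At 40 h, in the subjective night, all 3 were lower still, at 33.0 for *LHY*, 15.6 for *CCA1*, and 9.68 for *RVE8*. The 40 h signals of *CCA1* and *RVE8* lie under the floor.

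The 3 *PRR* genes of the day were above both dawn arrays. *PRR7* (AT5G02810) had 118.1 and 138.7 at dawn and 562.4 at 32 h, a 4.39-fold difference (log2 difference 2.13, SE 0.15, adjusted p = 0.0534 from limma). *PRR9* (AT2G46790), the earliest of the family to be expressed in the day, had 43.8 and 35.2 at dawn and 108.5 at 32 h, and was back at 32.8 at 40 h. It entered through its 32 h signal alone. *PRR5* (AT5G24470) was not called, with 172.8 and 219.3 at dawn and 309.6 at 32 h.

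The evening genes went different ways at 32 h. *GI* (AT1G22770), whose protein links the clock to flowering and to the stability of clock proteins, had 182.8 and 236.0 at dawn and 1127 at 32 h, 5.43-fold higher (log2 difference 2.44, SE 0.23, adjusted p = 0.0534 from limma). *ELF4* (AT2G40080), of the evening complex, was lower at 32 h, with 63.1 against 134.1 and 133.4, before 354.6 at 40 h. It entered through its dawn signals alone. *LUX* had 112.8 at 32 h against 147.8 and 131.7, and 344.2 at 40 h. *TOC1*, the last *PRR* gene of the day, had 249.7 at 32 h against 215.8 and 239.3, less than 1.2-fold apart, and 740.6 at 40 h. *ELF3* had 636.0 between its dawn signals of 622.5 and 649.1, and 925.1 at 40 h. Of these 5 genes, only *GI* was higher at 32 h than at 40 h.

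**Figure D3:**
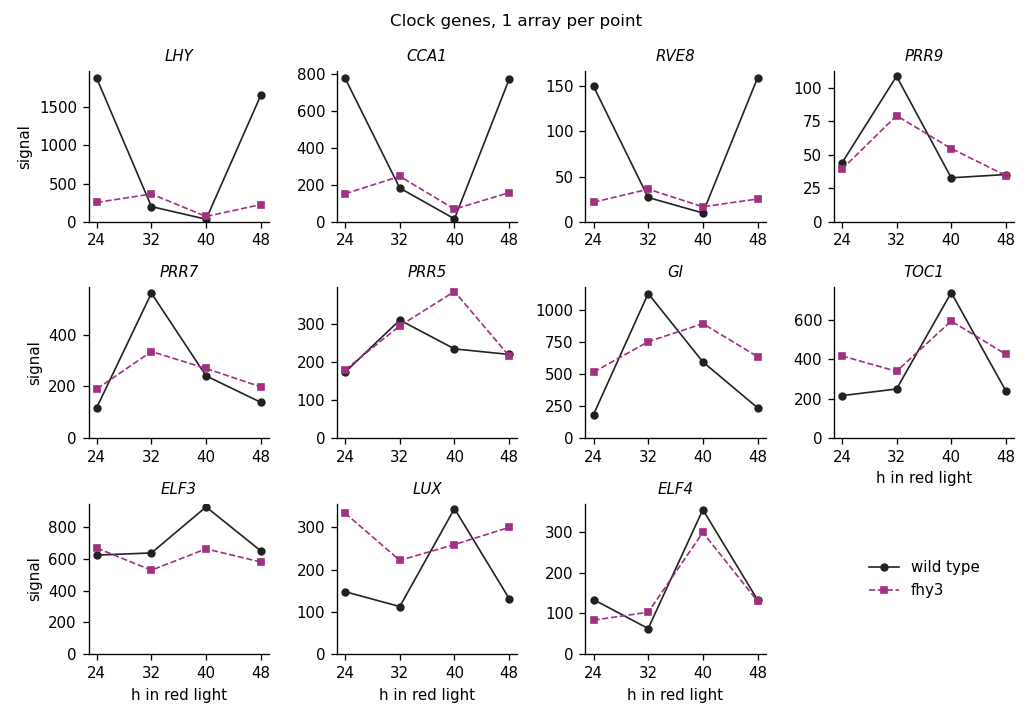
Signals of 11 clock genes on linear axes from 0 against hours in constant red light, with wild type as circles and solid lines and *fhy3* as squares and dashed lines, 1 array per point. In wild type *LHY*, *CCA1*, and *RVE8* are high at 24 and 48 h, *PRR9*, *PRR7*, *PRR5*, and *GI* are highest at 32 h, and *TOC1*, *ELF3*, *LUX*, and *ELF4* are highest at 40 h.

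With the clock genes included, 978 genes with a symbol were among the members, and of these 10 were called higher and 23 lower. Over all members the shares were 1.05% and 1.62%, so the 10 are near theirs and the 23 somewhat above. The other 321 called members were not paired with a single nuclear gene that has a symbol here. *Fes1B*, a gene for a nucleotide exchange factor of the chaperone Hsp70, had 87.4 and 89.1 at dawn and 340.7 at 32 h, a 3.86-fold difference with hardly any between the dawn arrays. *IAA29*, an Aux/IAA repressor of auxin response, had 110.2 and 171.9 at dawn and 511.9 at 32 h. *DPE1*, the disproportionating enzyme that works on maltotriose in starch breakdown in chloroplasts, had 173.8 and 230.6 at dawn and 637.0 at 32 h, or 3.18-fold more. The other called genes were nearer to the limit. *ALN*, the allantoinase of purine breakdown, had 252.9 and 252.3 at dawn and 536.8 at 32 h. *UBP20*, a ubiquitin protease, had 142.4 and 120.1 at dawn and 300.3 at 32 h. *SWEET3*, of a family of sugar transporters, had 47.9 and 60.7 at dawn and 123.4 at 32 h.

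Just short of the 2-fold limit stood 5 more genes among the 15 highest. The dehydrin gene *COR47* was 1.96-fold above the dawn mean, with an unadjusted p of 0.000765. *UGLYAH*, a ureidoglycolate amidohydrolase that acts later than allantoinase in the same purine breakdown, had 179.0 and 196.9 at dawn and 372.5 at 32 h. *FIO1*, known for a role in period length and flowering, had 57.6 and 56.8 at dawn and 108.1 at 32 h. *EXLA1*, an expansin-like gene, had 227.3 and 182.5 at dawn and 427.0 at 32 h, and the cytochrome P450 gene *CYP71B22* had 96.9 and 113.3 at dawn and 209.6 at 32 h. These genes were ranked by their distance from the dawn pair, so that they lie outside it by choice.

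Of the genes called lower in the afternoon, *UGT78D1* and *UGT78D2* act on flavonoids, and *CHIL* is related to an enzyme of their synthesis. *UGT78D1*, which adds rhamnose to flavonols, had 178.1 and 309.2 at dawn and 24.3 at 32 h, a 9.65-fold difference (log2 difference −3.27, SE 0.36, adjusted p = 0.0537 from limma). It entered through its dawn signals alone, with a 32 h signal close to the floor of 20.7. It was back at 220.6 at 40 h. *UGT78D2*, which adds glucose to flavonoids and anthocyanidins, had 267.2 and 337.6 at dawn and 103.0 at 32 h. *DFR*, the dihydroflavonol reductase of anthocyanin synthesis, had 107.3 and 228.8 at dawn and 69.7 at 32 h, and was not called. *CHIL*, a chalcone isomerase-like gene, had 430.7 and 574.9 at dawn and 195.1 at 32 h, and was called lower. The symbol *CHI* in this table belongs to AT2G43570, a chitinase gene, and was in the flavonoid list by its symbol alone. Without it, the list held 4 members, *UGT78D1*, *UGT78D2*, *DFR*, and *HCT*, and 4 of 4 lay below both dawn arrays, as did 41.3% of all members. The spread between 24 and 48 h was wide for *UGT78D1* and *DFR*.

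Of the 15 members of the redox and metals list, which holds detoxification and antioxidant genes, 12 lay below both dawn arrays (41.3% of all members did) and 2 above (40%), with a median log2 difference of −0.68 against −0.0058 over all members. The unadjusted p was under 0.05 for 9 of the lower ones, as it was for 13.7% of all members. As 8 of the 15 belong to 1 family, the members are not independent. *AOR*, an alkenal reductase, had the tightest difference, with 1741 in both dawn arrays and 573.6 at 32 h (3.04-fold, log2 difference −1.60, SE 0.11). *VTC4*, an inositol phosphate phosphatase that takes part in ascorbate synthesis, had 2293 and 2758 at dawn and 1328 at 32 h. *GR1*, a glutathione reductase, had 1208 and 1256 at dawn and 694.8 at 32 h. These 3 genes had dawn signals over 1000, far from the weak end of the scale.

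Glutathione transferases of the tau class, which conjugate glutathione to reactive compounds, made up 8 of the list, and 6 of the 8 were below both dawn arrays. *GSTU25* was called, with 81.1 and 140.5 at dawn and 32.9 at 32 h, but its SE was 1.19, as the *fhy3* dawn pair, which enters the same estimate, had 99.2 and 610.9. *GSTU20* went the other way, with 1401 and 1269 at dawn and 2403 at 32 h. Of 23 genes for UDP-glycosyltransferases, a family gathered after its values were seen, 14 lay below and 7 above both dawn arrays (41.3% and 40% of all members), and 3 were called lower (1.62% of all members). Members of such families can share sequence, so their probe sets may report more than 1 transcript.

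The remaining lower genes among the 15 lowest had varied roles. *GH9C1*, a cellulase-type glucanase, had 160.2 and 179.6 at dawn and 52.1 at 32 h, and 62.2 at 40 h. *CSLC12*, related to the synthases of the xyloglucan backbone, had 124.2 and 119.6 at dawn and 53.0 at 32 h. *DL1B*, a dynamin-like gene, had 131.8 and 130.0 at dawn and 57.7 at 32 h, and *MAG2*, which works in transport from the endoplasmic reticulum, had 137.8 and 158.8 at dawn and 58.7 at 32 h. In these 4 the dawn arrays differed by less than 1.2-fold. For *SWEET2*, a vacuolar sugar transporter, and *RALFL27*, a signal peptide gene, they differed more. *SWEET2* had 250.2 and 136.6 at dawn and 51.6 at 32 h, and *RALFL27* had 169.9 and 85.1 at dawn and 30.9 at 32 h. The cytochrome P450 gene *CYP71B37* had 92.9 and 108.2 at dawn and 30.9 at 32 h, and the subtilase gene *SBT4.12* had 132.2 and 116.1 at dawn and 51.6 at 32 h.

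**Figure D4:**
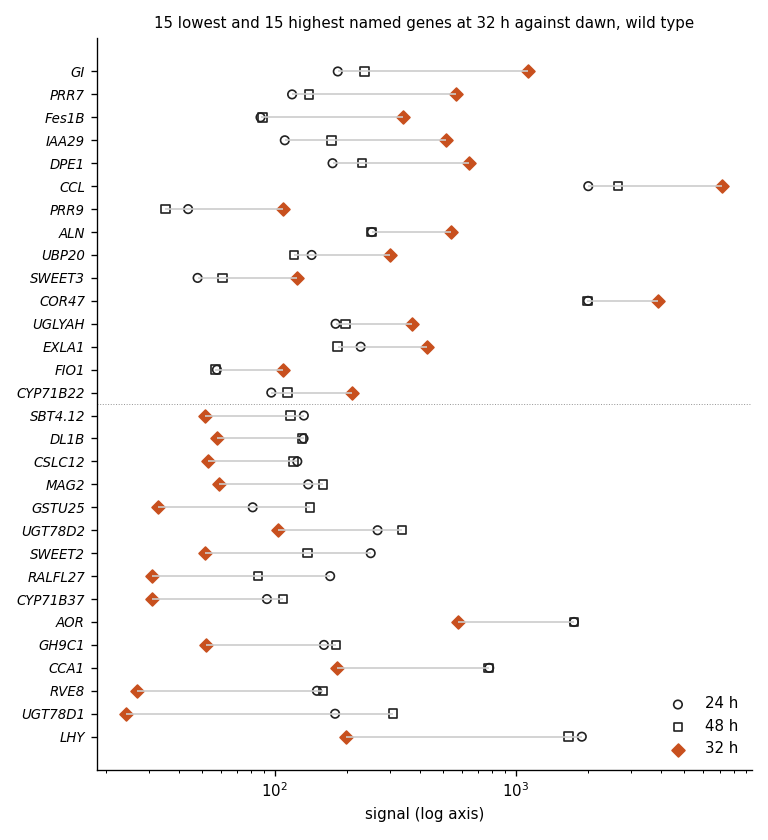
Signals in wild type at 24 h (open circles), 48 h (open squares), and 32 h (filled diamonds), on a log axis, for the 15 highest and 15 lowest genes with a symbol, ranked by the smaller of their differences from 24 and 48 h, 1 array per point. Signals of different genes are not comparable, and the distance between circle and square shows the spread between days, which is small for *CCA1*, *AOR*, and *Fes1B* and wide for *RALFL27* and *UGT78D1*.

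In the cold and drought list, 3 of 4 members were above both dawn arrays, where 40% of all members were. With so few members the counts are a description of single genes. *CCL*, known as CCR-like, was 3.11-fold above the dawn mean and *COR15B*, a chloroplast protein of freezing tolerance, had 131.9 and 196.8 at dawn and 236.4 at 32 h. *LTI30*, another dehydrin gene, lay the other way, with 509.5 and 404.2 at dawn and 299.5 at 32 h. In the auxin list 4 of 6 members were above both dawn arrays, against the same 40%, with a median log2 difference of 0.56. The homeobox gene *HAT2*, which auxin induces, had 363.1 and 372.1 at dawn and 604.0 at 32 h. *GH3.3* and *WES1*, which join amino acids to auxin, had 149.2 and 1456 at 32 h against at most 107.8 and 1132 at dawn.

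Growth and cytoskeleton genes were split. Of 16 cell wall genes, 6 were above and 6 below both dawn arrays (40% and 41.3% of all members), with a median log2 difference of 0.01. *COB*, a gene for oriented cell expansion, had 1245 and 1337 at dawn and 2046 at 32 h, and *XTH16*, a xyloglucan endotransglucosylase, had 356.0 and 324.9 at dawn and 536.3 at 32 h. The expansin gene *EXPA18*, known from root hairs, had 245.9 and 261.1 at dawn and 149.4 at 32 h. Of 7 tubulin genes, counted as a family after their values were seen, 4 lay above both dawn arrays and 2 below (40% and 41.3% of all members). *TUB1* had 564.6 and 545.4 at dawn and 821.4 at 32 h, and *TUB5*, *TUB6*, and *TUA6* were 0.48 to 0.56 higher on the log2 scale, with unadjusted p from 0.00652 to 0.0236 over the 4. The histone genes *HTB1* and *HTB2* were below both dawn arrays, at 533.0 and 583.6 against dawn signals of at least 679.9 and 760.4.

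None of 5 light-harvesting, 8 photosystem, 4 Calvin cycle, or 8 chlorophyll synthesis members was called, and with 2.67% of all members called, lists of this size would hold few calls or none. *LIL3:1*, a light-harvesting-like gene, had 2164 and 2173 at dawn and 1324 at 32 h, with an unadjusted p of 0.012 from limma. *LHCB4.1*, an antenna protein of photosystem II, had 9543 and 9421 at dawn and 9957 at 32 h. *PIFI*, a factor of chloroplast electron flow, had 1661 and 1632 at dawn and 2798 at 32 h, and *CaS*, the thylakoid calcium sensor, had 4471 and 4334 at dawn and 2955 at 32 h. Among the 62 members encoded in the chloroplast none was called higher and 1 lower, near the 1.05% and 1.62% of all members, and their median log2 difference was −0.0046. Another 6 organelle members could not be placed in the chloroplast or mitochondrial genome, and 1 of them was called higher. The steadiest strong genes with a symbol were *GAPC2*, *PSAE-1*, *ATPC1*, *SAMDC*, and *TPI*, whose 4 wild type signals stayed within 1.1-fold. *ATPC1*, a subunit of the chloroplast ATP synthase, had 6270, 6310, 6306, and 6368 at 24, 32, 40, and 48 h. In all, 51 of the 978 genes (5.21%) were as steady.

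Lists of carbon use were small. Besides *DPE1*, the starch breakdown list held the loci AT4G24450 and AT5G26570, which share the symbol *PWD*, and neither was called. In carbon and nitrogen remobilisation, *AKINBETA1*, a subunit of the SnRK1 energy-sensing kinase, had 748.6 and 465.1 at dawn and 1150 at 32 h, and *MCCA*, a carboxylase subunit of leucine breakdown, had 345.6 and 244.5 at dawn and 515.3 at 32 h. *ICL*, the isocitrate lyase of the glyoxylate cycle, had 311.5 and 114.7 at dawn and 74.0 at 32 h, so that its dawn arrays differed by more than the nearer of them differed from the afternoon. *EIN3*, the transcription factor of ethylene response, had 871.4 and 835.3 at dawn and 1193 at 32 h. The jasmonate factors *MYC3* and *MYC4* had 359.1 and 297.4 at 32 h against dawn signals of at least 442.6 and 421.1. The sulfur assimilation genes *APS3* and *APS4* lay between their dawn signals, as did the *FHL* gene of phytochrome A signalling.

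The widest differences between 24 and 48 h show what the dawn pair alone can do. *THI2.1*, a thionin defence gene, had 175.2 at 24 h and 866.0 at 48 h, with 327.8 at 32 h and 3632 at 40 h. *BGLU28*, a beta-glucosidase, had 1043 and 3549 at dawn and 1584 at 32 h, and *APL3*, a subunit of the enzyme that supplies starch synthesis, had 106.5 and 337.6 at dawn and 148.0 at 32 h. *DI21* had 2421 at 24 h and 1207 at 48 h, with 1912 at 32 h. For these 4 genes the afternoon lay between the dawn signals, and no call was made. A wide dawn pair did not always prevent a call. Dawn arrays at least 2-fold apart were found for 17 of the 354 called members, and for 1.53% of all members.

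Members with a locus code and no symbol, 6047 in all, gave 62 of the higher and 83 of the lower calls. These counts are not above the 1.05% and 1.62% called over all members. AT5G62360 had 98.9 and 106.1 at dawn and 493.6 at 32 h, and AT4G30650 had 304.0 and 503.2 at dawn, 2144 at 32 h, and 2197 at 40 h. AT5G55570 had 384.2 and 358.3 at dawn, 38.1 at 32 h, and 49.6 at 40 h, and AT1G64500 had 488.0 and 413.9 at dawn, 75.5 at 32 h, and 119.6 at 40 h. At 40 h, an array that the choice of these loci did not use, AT4G30650 stayed near its afternoon signal and AT5G62360 lay between afternoon and dawn.

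The 40 h array was not used to choose the calls. Its levels are placed against the 24, 32, and 48 h signals that did choose them, so the counts follow in part from that choice. The same counts over all members are not given here. Among the 139 higher members the median signal was 117.3, 351.0, 186.3, and 126.0 at 24, 32, 40, and 48 h. At 40 h, 93 lay between the dawn and afternoon levels, 15 within the dawn pair, 25 below it, and 6 at or above the afternoon level. Among the 215 lower members the median signals were 199.6, 69.0, 110.6, and 197.5. At 40 h, 117 of them lay between, 28 within the dawn pair, 15 above it, and 55 at or below the afternoon level. A difference of at least 2-fold from both dawn arrays was still present at 40 h for 24 of the higher and 80 of the lower members.

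The *fhy3* arrays gave smaller differences for 353 of the 354 called members. The calls were chosen for their size in wild type, so that smaller values elsewhere follow in part from that choice. In *fhy3*, 25 of the 13282 members were higher and 16 lower by the same 2-fold rule (0.188% and 0.12%), and limma called 0, with 861 at an unadjusted p under 0.05. Of the 139 members higher in wild type, 101 lay above both *fhy3* dawn arrays (39.4% of all members did), 9 of them by 2-fold, and the median log2 difference was 0.33 against 1.43 in wild type. Of the 215 lower members, 102 lay below both (34.2% of all members did) and 75 above both (39.4% of all members did). Their median was −0.06 against −1.44. The difference between genotypes passed the adjusted threshold for 0 probe sets, with a smallest adjusted p of 0.167 and 1759 members (13.2%) at an unadjusted p under 0.05.

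Single genes show the range. *LHY* had 252.5 and 224.2 at dawn and 363.0 at 32 h in *fhy3*, where the afternoon was above dawn. *Fes1B* was level in *fhy3*, with 167.8 and 165.2 at dawn and 175.3 at 32 h, and so was *DPE1*, with 301.6, 334.6, and 308.1. *PRR9* kept a similar pattern in *fhy3*, with 39.1 and 34.5 at dawn and 79.2 at 32 h, as did *RALFL27*, with 110.8 and 106.2 at dawn and 36.7 at 32 h. For *RALFL27* the difference between genotypes was −0.39 on the log2 scale with an SE of 0.63, which leaves room for differences in either direction. *ICL* was far higher in *fhy3* at 32 h, with 3015 against 472.9 and 1018 at dawn.

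**Figure D5:**
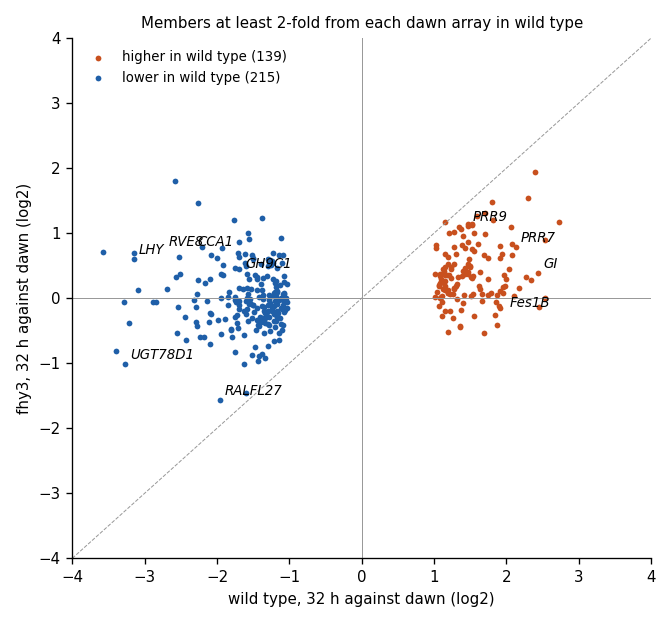
Log2 difference of 32 h against dawn in *fhy3* (vertical) against that in wild type (horizontal) for the 139 higher and 215 lower members, 1 point per probe set, with the dashed line marking equal differences. Most points lie nearer to the horizontal axis than to the dashed line, with medians of 0.33 for the higher and −0.06 for the lower members in *fhy3*, and the gap around 0 on the horizontal axis comes from the 2-fold rule.

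The label of whole seedlings was checked against marker genes. Light-harvesting and photosystem members had signals up to 9957 at 32 h, and *PYK10*, a beta-glucosidase abundant in roots, had 5674, 5666, and 7281 at 24, 32, and 48 h, so that green tissue and root were both present. *EXPA18* of root hairs was lower at 32 h, while *SPCH* of the stomatal lineage had 78.7 and 61.1 at dawn and 125.6 at 32 h. The gene with the symbol *FDH* in the shoot list is AT5G14780, a formate dehydrogenase, and is no marker. With 2 root genes and 1 shoot gene, a shift in tissue share was not tested. Array means ranged from 402.4 to 438.8. Over members, each array's median Spearman correlation to the rest was 0.926 to 0.964, and the 32 h wild type array was near the low end, at 0.927.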

How the data were processed

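The intensity values were deposited by the authors as linear signals of 8 arrays, already scaled between arrays. MAS5, with no version, is named in the submitters' processing notes, whereas the study's methods name D-chip, and which of them made these values is not settled. Depth does not apply to arrays, and the number of arrays limits the precision.

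Members were found by the signal limit of 100, and 52 control probe sets that met it were left out. Genes were named from a table of probe sets and symbols. The 5924 members it does not list are unnamed here, 6047 have a locus code, and 261 match several genes. Of 11 clock genes, 10 were identified by matching their listed wave fits in the study's supplement within 0.01, with a single probe set each. A fitted amplitude could equal the listed one or be 2-fold smaller. For *LHY*, *CCA1*, *RVE8*, *ELF3*, and *LUX* the match used only 1 genotype. TAIR10.1 annotation gave the locus codes. No genome was used, so promoters were not searched for motifs.

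Differences were tested with limma 3.58.1 in R 4.3.3 on log2 signals, with signals under 20.7, 5% of the mean of all probe sets, set to that value. The model held 6 coefficients, genotype by time of day with 24 and 48 h as one, over 18108 probe sets with a mean of at least that value in a genotype, with Benjamini-Hochberg adjustment at 0.05 and 1.98 prior degrees of freedom. The procedure was tested on simulated data. Fold changes are against the dawn mean on the log2 scale.

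The members, the 32 gene lists and the tests were chosen with earlier results of these data known. Lists are described by counts and medians, and 5 had no member. The rule for naming took the 15 highest and 15 lowest genes with a symbol, up to 4 members of each list, and the clock genes. It also took the 5 widest differences between 24 and 48 h each way, the 5 steadiest strong genes, and the 5 smallest limma p-values between genotypes. Not every gene it took is described, and *SWEET13*, *CML38*, *WRKY53*, and *OPCL1* are among those left out. *CHIL*, *GR1*, the UDP-glycosyltransferase and tubulin families, and the loci without symbols lie outside this rule and were chosen after their values were seen. Alternatives concerned the floor, filter, normalisation, signal limit, fold, and each dawn array.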

Additional observations from a re-analysis of the deposited data

Results flagged for a closer look

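Of the 23 named genes called lower in the wild type afternoon, 9 were flagged. In these, both *fhy3* dawn arrays lay below the *fhy3* array at 32 h, the opposite of the wild type. Of all members, 39.4% lay above both *fhy3* dawn arrays. A count of 9 of 23 is near that share, so it is no trait of the lower genes. The SD of 48 h against 24 h in *fhy3* was 0.23. The limma test of the difference between genotypes had an unadjusted p under 0.05, though none passed adjustment over all probe sets. The calls were chosen for their size in wild type, which enters that test. Such a p was found for 187 of the 215 lower members, so it cannot decide whether the genotypes differ. The log2 difference of 32 h against dawn in *fhy3* was 0.61 for *LHY*, 0.63 for *RVE8*, and 0.67 for *CCA1*, against −3.15, −2.52, and −2.09 in wild type (adjusted p = 0.167 for each from limma). It was 0.70 for *GH9C1* and 0.10 for *CSLC12*, against −1.70 and −1.20 in wild type (adjusted p = 0.167 and 0.173 from limma). *SBT4.12* and *SP1L4*, a subtilase and a gene related to *SPIRAL1* of microtubules, had 0.58 and 0.24 in *fhy3*, against −1.26 and −1.20 (adjusted p = 0.241 and 0.173 from limma). *BGLU19*, a beta-glucosidase, had 0.14 against −1.64, and *MMP*, a matrix metalloproteinase, had 0.54 against −1.23 (adjusted p = 0.301 and 0.205 from limma).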

How the results depend on the processing

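The count of limma calls among members, 0 in each direction, stayed at 0 under quantile normalisation, median scaling, and a trend in the prior. Other signal limits reuse the same test, in which no probe set passed, so their 0 was fixed in advance. Wild type arrays alone also gave 0, but with fewer residual degrees of freedom, so that 0 cannot show a stable result. Without a dawn array the wild type dawn is 1 array, and no count is given. The count was 177 higher and 250 lower with no floor, and 300 and 169 with a floor at 20% of the mean. It was 33 and 53 over probe sets of 1 nuclear gene, 136 and 201 with no filter, and 448 and 583 when tested over members only. With the floor at 20%, *fhy3* gave 34 higher and 10 lower, and the difference between genotypes 225 and 96. The 2-fold calls, 139 higher and 215 lower, became 257 and 430 at a signal limit of 50, 90 and 105 at 200, 72 and 106 over probe sets of 1 nuclear gene, 637 and 758 at 1.5-fold, and 25 and 59 at 3-fold. Leaving out 1 dawn array gave 219 to 306 higher and 325 to 410 lower. The floor at 20% left 117 lower. Members 2-fold apart between 24 and 48 h were 203, and 127 at a signal limit of 200. Quantile normalisation gave 158 higher and 194 lower, of which 134 and 192 were the same probe sets. The causes were not tested. Among the called genes taken by the rule for naming, none changed direction under quantile normalisation. Leaving out 1 dawn array could not change the direction of a called gene, because a call needs both. No paired analysis was possible because each group holds a single array with replicate number 1.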
